A study of Mus musculus with 11 samples.

Results

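Interferon-stimulated antiviral genes are the genes that cells switch on after interferon binds its receptor. A list of 42 such genes was followed in the livers of 4 genotypes, and 41 of them were measured by a probe set that carried 1 gene symbol, out of 19938 genes measured in that way. Where a gene had several such probe sets, which was the case for Irf1, the one with the highest mean over the 11 arrays was taken. The remaining gene, Ifi47, lies on a probe set that carries several symbols and was not analysed here. The rule for the list names the genes and uses no threshold on their values. The genes were, however, chosen with earlier results of these data known.

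The livers came from male C57/BL6 mice aged 8 to 9 weeks on standard chow. Nemo KO mice (3 arrays) lacked Nemo, encoded by Ikbkg, in hepatocytes through a loxP-flanked allele. Nemo/TRAIL dKO mice (2 arrays) and Nemo/TNFR1 dKO mice (3 arrays) carried the same hepatocyte deletion and lacked in addition TRAIL or the TNF receptor TNFR1 in every cell. WT mice made up the last group (3 arrays). All groups but WT therefore share the Nemo deletion, and no group lacks TRAIL or TNFR1 alone. The promoter that drives the recombinase is not stated in the sources used here. RNA was taken from whole liver, so that fewer cells of a type and less RNA per cell cannot be told apart. The labels do not state that each array is a separate mouse, so a p-value here speaks of the spread from array to array, which may be technical. Values are log2 expression as deposited, differences are on the log2 scale with the group named first minus the group named second, and a difference of 1 is a fold of 2.

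Type I interferons bind the receptor pair IFNAR1 and IFNAR2, whose kinases JAK1 and TYK2 start the signal in the cell. It leads to the complex ISGF3, which contains STAT2 and IRF9 and binds the interferon-stimulated response element (ISRE) in promoters of antiviral genes. Interferon gamma has a receptor of its own and acts through the gamma-activated site (GAS). Many of the products are themselves sensors or transcription factors of the same pathway, among them IRF7 and the RNA sensors RIG-I and MDA5, and others, such as USP18, dampen it. In liver the response is best known from infection with hepatitis viruses.

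Promoters are shown because the ISRE is the sequence through which ISGF3 acts. The core of the ISRE was searched as GAAANNGAAA and its other strand TTTCNNTTTC, and the core of the GAS as TTCNNNGAA, which reads the same on both strands, in RefSeq promoters of the GRCm38.p6 build that run from 250 bases before to 50 bases after each gene's start. Of the 41 measured genes 31 had at least 1 such promoter, 40 promoters in all. The 10 without one were Dhx58, Oas2, Mx1, Mx2, Zbp1, Rtp4, Parp9, Parp14, Usp18 and Ifi27l2a. Usp18 and Ifi27l2a had the largest Nemo KO differences of the whole list (1.80 and 1.43), so the promoter results do not cover them. The ISRE core stood in 15 of these 40 promoters (37.5%), against 1131 of all 32851 promoters of that length (3.44%). Counted by gene, 14 of 31 (45.2%) held it, against 3.99% of all genes with a promoter. The GAS core stood in 8 of the 40 (20.0%), against 8.3% of all promoters. Both cores occurred in 4 promoters of the list, and in 1 of them they overlapped. A match is a run of letters and not a measured binding site. The promoters of the 4 genes with an ISRE match and the largest difference between Nemo KO and WT follow, written 5′ to 3′ along the gene with the matches in capitals (ISRE cores, and for Oas1a also 1 GAS core upstream of them). In Gbp3 and in Oas1a 2 ISRE matches share bases and appear as 1 longer run.
Trim30a (chr7:104465144-104465443, minus strand): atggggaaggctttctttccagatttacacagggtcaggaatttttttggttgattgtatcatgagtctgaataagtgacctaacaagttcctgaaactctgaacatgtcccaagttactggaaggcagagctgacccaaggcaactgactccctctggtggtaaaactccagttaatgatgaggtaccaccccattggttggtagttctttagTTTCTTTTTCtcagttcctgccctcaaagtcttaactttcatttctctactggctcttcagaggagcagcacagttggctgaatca
Gbp3 (chr3:142559794-142560093, plus strand): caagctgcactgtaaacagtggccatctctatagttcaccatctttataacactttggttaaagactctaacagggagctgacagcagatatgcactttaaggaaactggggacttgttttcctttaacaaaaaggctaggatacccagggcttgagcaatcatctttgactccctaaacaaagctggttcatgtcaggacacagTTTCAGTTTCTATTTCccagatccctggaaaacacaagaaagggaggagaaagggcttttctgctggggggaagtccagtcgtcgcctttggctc
Oas1a (chr5:120907476-120907775, minus strand): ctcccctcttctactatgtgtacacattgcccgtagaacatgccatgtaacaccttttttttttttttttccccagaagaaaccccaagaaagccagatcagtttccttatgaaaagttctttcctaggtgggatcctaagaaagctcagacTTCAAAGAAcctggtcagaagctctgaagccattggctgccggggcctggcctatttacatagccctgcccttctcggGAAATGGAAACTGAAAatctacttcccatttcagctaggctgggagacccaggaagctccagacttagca
Ifit3 (chr19:34583279-34583578, plus strand): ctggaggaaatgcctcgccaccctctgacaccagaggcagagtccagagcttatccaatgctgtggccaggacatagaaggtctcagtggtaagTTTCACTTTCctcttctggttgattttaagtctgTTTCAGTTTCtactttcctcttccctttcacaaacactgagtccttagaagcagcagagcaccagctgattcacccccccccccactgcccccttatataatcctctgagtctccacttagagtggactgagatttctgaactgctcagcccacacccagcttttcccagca

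The first base of the ISRE match lay 36 bases before the start in Trim30a, 45 and 39 bases in Gbp3, 20 and 14 bases in Oas1a, and 156 and 122 bases in Ifit3. Trim30a had a second promoter in the table, which also held the core. Gbp3 had 2 promoters as well, of which only the 1 printed held the ISRE core. Next come the 2 genes with the largest Nemo KO difference among those whose window held no match to either core, and Stat2, which was chosen after its values were seen as a gene that has the ISRE core (222 bases before the start) and passed no test.
Oasl2 (chr5:114896684-114896983, plus strand): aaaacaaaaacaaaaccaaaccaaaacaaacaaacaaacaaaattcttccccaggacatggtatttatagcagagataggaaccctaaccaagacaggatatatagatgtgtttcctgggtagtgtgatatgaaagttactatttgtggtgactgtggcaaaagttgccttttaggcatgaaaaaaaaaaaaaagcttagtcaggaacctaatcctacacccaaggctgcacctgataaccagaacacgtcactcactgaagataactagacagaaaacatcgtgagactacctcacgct
Irf7 (chr7:141266375-141266674, minus strand): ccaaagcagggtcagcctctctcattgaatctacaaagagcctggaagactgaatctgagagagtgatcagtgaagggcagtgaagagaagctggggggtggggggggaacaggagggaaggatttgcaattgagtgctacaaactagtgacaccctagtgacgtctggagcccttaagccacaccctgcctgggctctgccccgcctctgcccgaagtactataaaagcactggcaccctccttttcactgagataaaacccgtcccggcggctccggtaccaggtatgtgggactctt
Stat2 (chr10:128270248-128270547, plus strand): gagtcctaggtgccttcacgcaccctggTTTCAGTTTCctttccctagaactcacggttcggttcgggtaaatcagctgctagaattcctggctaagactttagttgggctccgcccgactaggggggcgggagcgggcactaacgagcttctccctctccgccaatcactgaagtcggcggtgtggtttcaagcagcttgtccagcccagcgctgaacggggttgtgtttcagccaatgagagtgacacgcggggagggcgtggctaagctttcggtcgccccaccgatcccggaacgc

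Among the 31 genes with a promoter, genes that rose were found both with and without the core. Of the 14 genes with an ISRE core 7 rose in Nemo KO against WT, with a median difference of 0.52 over the 14, and of the 17 genes without one 9 rose, with a median of 0.58. Trim30a, Gbp3 and Oas1a, each with a core near the start, and Oasl2 and Irf7, with none in the window, were all among the genes that rose.

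**Figure D1:**
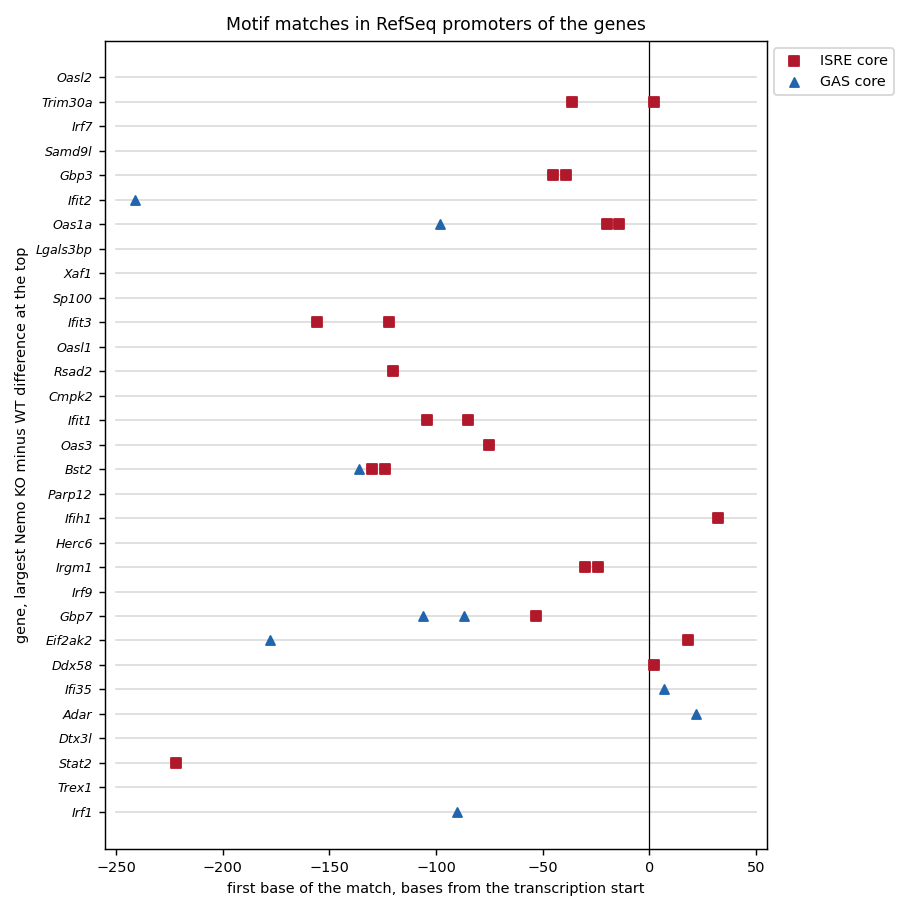
Position of each match to the ISRE core (squares) and the GAS core (triangles) along the promoters of the 31 genes that had one, in bases from the transcription start (vertical line). Of these 31, the gene with the largest Nemo KO minus WT difference is at the top. The ISRE core appears in 14 of the 31 genes, both among those at the top and among those at the bottom.

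Some facts of the arrays bear on the results. Ikbkg, the targeted gene, read 8.34, 8.56 and 8.36 in Nemo KO livers, 8.28 and 8.22 in Nemo/TRAIL dKO livers and 8.20, 8.31 and 8.12 in Nemo/TNFR1 dKO livers, against 8.65, 8.73 and 8.60 in WT, so that every Nemo-deficient array lay below every WT array. It passed the test in both double knockouts and missed it in Nemo KO (adjusted p = 0.106). Tnfsf10, which encodes TRAIL, passed no test (Nemo/TRAIL dKO minus WT -0.65, adjusted p = 0.0749), and neither did Tnfrsf1a, which encodes TNFR1, in Nemo/TNFR1 dKO (0.07 above WT, adjusted p = 0.67), while it rose in Nemo KO (0.35, 0.0401) and Nemo/TRAIL dKO (0.43, 0.0314). Whether the probes lie in the deleted parts is not known, so these probe sets may not check the labels. WT replicate 3 stood apart in 8 pancreatic acinar markers, whose mean lay 3.84 above the WT mean on that array and between -2.25 and -1.82 on the other 10. A code within the array names is common to WT and Nemo KO and differs for either double knockout; if it marks a batch, batch and genotype cannot be told apart for the double knockouts.

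The antiviral genes were higher in all 3 Nemo-deficient genotypes than in WT. Usp18, a protease that removes ISG15 from proteins and blocks the interferon receptor, stood first in each, at 3.47 times the WT level in Nemo KO, 3.90 times in Nemo/TRAIL dKO livers and 3.09 times in Nemo/TNFR1 dKO. In Nemo KO 22 of the 41 genes rose and 0 fell (adjusted p below 0.05 in the limma test over all 35556 probe sets). Of all probe sets 6.08% rose and 3.21% fell in that comparison. In Nemo/TRAIL dKO 28 rose and 0 fell, against 4.91% and 2.64% of all probe sets, and in Nemo/TNFR1 dKO 19 rose and 0 fell, against 5.83% and 3.35%. The median difference over the 41 genes was 0.53 in Nemo KO, 0.66 in Nemo/TRAIL dKO livers and 0.45 in Nemo/TNFR1 dKO, while the medians over all 19938 genes were -0.05, -0.04 and -0.02. These 3 comparisons share the WT arrays. Because the list was chosen with earlier results of these data known, its counts beside those of all probe sets are a description and no independent test.

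For most of these genes WT did not overlap with the Nemo-deficient genotypes. All Nemo KO arrays lay above all WT arrays for 28 genes (12.8% of all probe sets did so), all Nemo/TRAIL dKO arrays for 35 (14.7%) and all Nemo/TNFR1 dKO arrays for 24 (11.6%). The number of genes called in Nemo/TRAIL dKO, 28 with all arrays, depended on its 2 arrays: 12 genes were called without replicate 1, 20 without replicate 2, and 15 when only Nemo/TRAIL dKO and WT entered the fit. Without WT replicate 3, the array with the pancreatic markers, the numbers of called genes were 19 in Nemo KO, 23 in Nemo/TRAIL dKO livers and 16 in Nemo/TNFR1 dKO. The last number counts genes called in either direction and includes Mx2, which passed as lower than WT (-0.45, adjusted p = 0.0178).

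**Figure D2:**
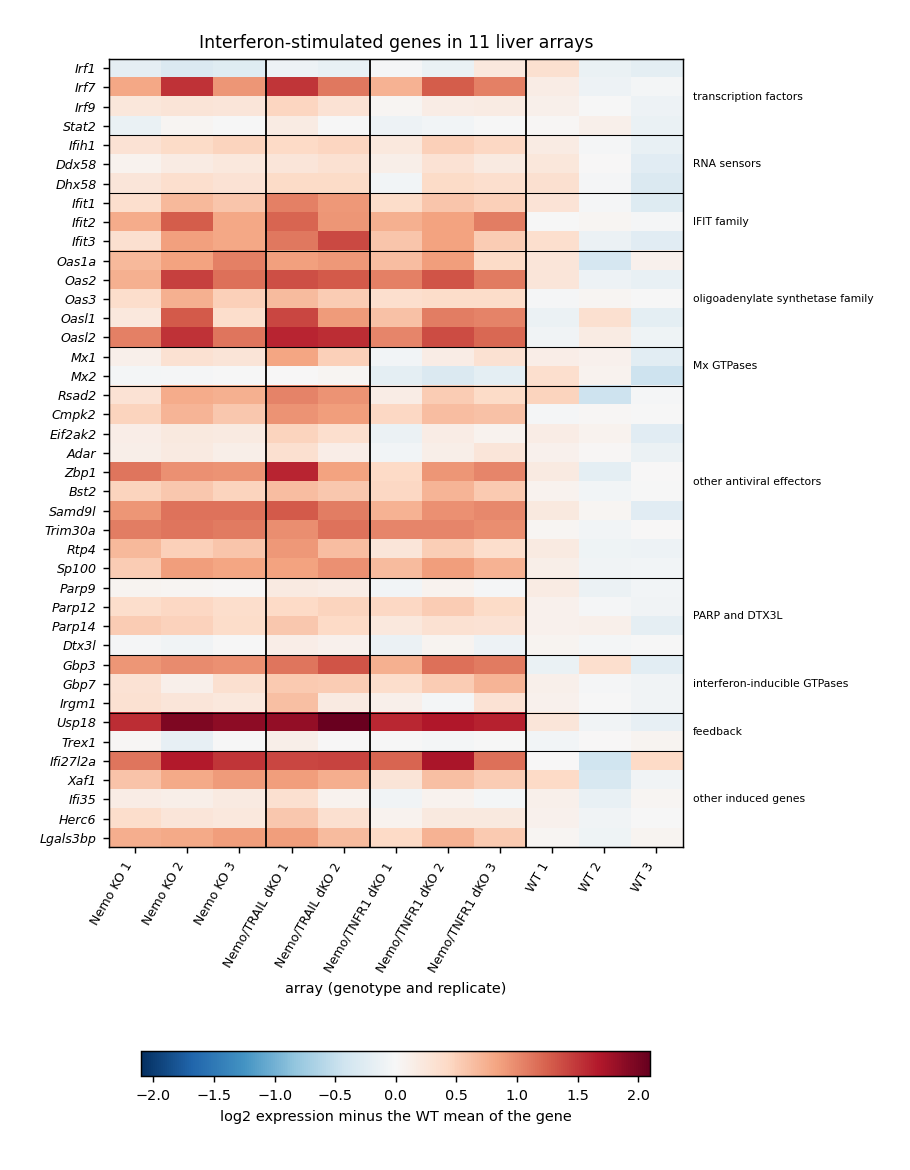
Each row is 1 of the 41 genes, grouped by role, and each column is 1 array; colour gives log2 expression minus the WT mean of that gene, red for higher and blue for lower. The Nemo-deficient columns are red in most rows, strongest for Usp18, while Stat2, Parp9, Dtx3l and Trex1 stay near white.

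The 18 genes called in all 3 comparisons came from every role but the Mx GTPases. They were Irf7, Ifih1, Ifit2, Oas1a, Oas2, Oas3, Oasl2, Cmpk2, Zbp1, Bst2, Samd9l, Trim30a, Sp100, Parp12, Gbp3, Usp18, Ifi27l2a and Lgals3bp. Ifit1, Rtp4, Parp14 and Xaf1 rose in Nemo KO and Nemo/TRAIL dKO, Gbp7 rose in both double knockouts, and Irf9, Ifit3, Mx1, Rsad2 and Herc6 rose in Nemo/TRAIL dKO. The other 13 genes passed in none: Irf1, Stat2, Ddx58, Dhx58, Oasl1, Mx2, Eif2ak2, Adar, Parp9, Dtx3l, Irgm1, Trex1 and Ifi35. A call in some genotypes and not in others is no test of a difference between them, and those tests are given further on.

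**Figure D3:**
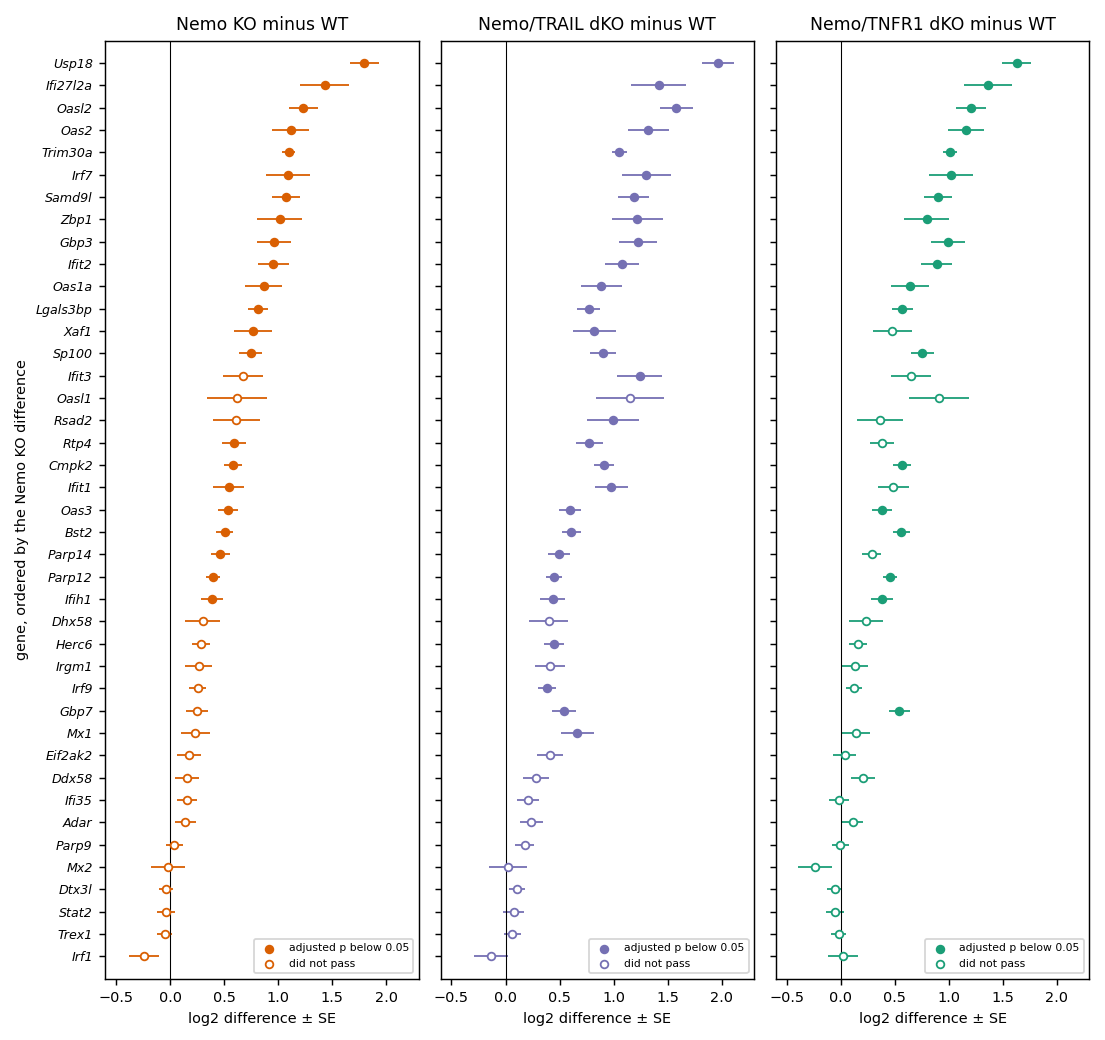
Log2 difference from WT with its standard error for the 41 genes in Nemo KO, Nemo/TRAIL dKO livers and Nemo/TNFR1 dKO, ordered by the Nemo KO difference; filled points passed at an adjusted p below 0.05. Filled points number 22, 28 and 19, and none lies left of 0.

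Among the transcription factors only Irf7 rose in every comparison with WT. IRF7, the factor that drives the later wave of interferon alpha production and is itself interferon-induced, read 8.72, 9.43 and 8.83 in Nemo KO livers, 9.40 and 9.01 in Nemo/TRAIL dKO livers and 8.63, 9.17 and 8.97 in Nemo/TNFR1 dKO livers, against 8.05, 7.80 and 7.86 in WT. The WT arrays did not overlap with any other group, and replicate 2 of Nemo KO and replicate 1 of Nemo/TRAIL dKO were the highest. The differences were 1.09 ± 0.20 (SE), 1.30 ± 0.23 and 1.02 ± 0.20, with adjusted p = 0.0098, 0.00874 and 0.0136. The call was lost in Nemo/TRAIL dKO without its replicate 1 (adjusted p = 0.0924), and in Nemo/TNFR1 dKO without WT replicate 2 (0.0515) or without its own replicate 2 (0.0559) or 3 (0.0507). Irf9, the DNA-binding part of ISGF3, rose in Nemo/TRAIL dKO (0.38, adjusted p = 0.0244), and its differences in Nemo KO (0.25) and Nemo/TNFR1 dKO (0.12) did not pass. Leaving out Nemo/TRAIL dKO replicate 1 (adjusted p = 0.192) or 2 (0.0517), or WT replicate 2 (0.0658) or 3 (0.0586), ended that call, and without WT replicate 1 Irf9 passed in Nemo KO (0.0467). Stat2, its partner in ISGF3, differed from WT by -0.04, 0.08 and -0.05 and passed in none.

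Irf1, a factor induced by interferon gamma and by NF-kB, did not share the pattern. Its brighter probe set differed from WT by -0.24 in Nemo KO, -0.13 in Nemo/TRAIL dKO livers and 0.02 in Nemo/TNFR1 dKO, and its second probe set by -0.10, -0.24 and -0.05. None of these passed, and Irf1 was the gene with the lowest Nemo KO difference in the list.

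The RNA sensors had small differences. Ifih1, which encodes MDA5, the sensor of long double-stranded RNA, read 9.33, 9.43 and 9.50 in Nemo KO livers, 9.46 and 9.48 in Nemo/TRAIL dKO livers and 9.26, 9.53 and 9.46 in Nemo/TNFR1 dKO livers, against 9.21, 9.01 and 8.88 in WT. WT replicate 1 came within 0.1 of the lowest array of Nemo/TNFR1 dKO, and no groups overlapped with WT. Its differences of 0.385, 0.44 and 0.38 passed narrowly (adjusted p = 0.044, 0.0477 and 0.0441). In each comparison the call was kept in 2 of the 11 fits that left out 1 array, and the adjusted p ran up to 0.143, 0.191 and 0.145. Ddx58, which encodes the sensor RIG-I, and Dhx58, which encodes the regulator LGP2, differed from WT by 0.16 to 0.40 and did not pass.

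The IFIT genes encode proteins that bind viral RNA and hold back its translation, and at least 1 of the 3 rose in each genotype. Ifit2 read 6.63, 7.11 and 6.66 in Nemo KO livers, 7.07 and 6.78 in Nemo/TRAIL dKO livers and 6.59, 6.69 and 6.93 in Nemo/TNFR1 dKO livers, against 5.84, 5.89 and 5.82 in WT. The 3 WT arrays were within 0.1 of each other and well apart from all others. The differences were 0.95 ± 0.14, 1.08 ± 0.16 and 0.89 ± 0.14, with adjusted p = 0.00324, 0.00415 and 0.00451; without Nemo/TRAIL dKO replicate 1 the second rose to an adjusted p of 0.0503.

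For Ifit1 and Ifit3 both Nemo/TRAIL dKO arrays lay above all other arrays, but the differences of Nemo/TRAIL dKO from Nemo KO (adjusted p = 1 for both) and from Nemo/TNFR1 dKO (0.838 and 0.889) did not pass. Ifit1 read 7.34, 7.67 and 7.56 in Nemo KO livers, 8.04 and 7.89 in Nemo/TRAIL dKO livers and 7.37, 7.57 and 7.48 in Nemo/TNFR1 dKO livers, against 7.28, 6.96 and 6.71 in WT. Both Nemo/TRAIL dKO arrays exceeded all the rest, and WT replicate 1 came close to the lowest Nemo KO array. It rose by 0.54 ± 0.14 in Nemo KO (adjusted p = 0.0417) and by 0.98 ± 0.16 in Nemo/TRAIL dKO (0.00596), and its difference of 0.49 ± 0.14 in Nemo/TNFR1 dKO did not pass (0.0628). The Nemo KO call was kept in 2 of 11 fits that left out 1 array, the Nemo/TRAIL dKO call was lost without that group's replicate 1 (0.0637), and without WT replicate 1 the gene passed in Nemo/TNFR1 dKO (0.0183). Ifit3 read 7.53, 8.04 and 7.99 in Nemo KO livers, 8.28 and 8.57 in Nemo/TRAIL dKO livers and 7.76, 8.02 and 7.71 in Nemo/TNFR1 dKO livers, against 7.54, 7.06 and 6.95 in WT. Nemo KO replicate 1 and WT replicate 1 lay at the same level, and both Nemo/TRAIL dKO arrays were above all others. Its difference of 1.24 ± 0.21 in Nemo/TRAIL dKO passed (adjusted p = 0.00707), and those of 0.67 ± 0.19 in Nemo KO (0.0527) and 0.65 ± 0.19 in Nemo/TNFR1 dKO (0.0604) did not. The first was lost without Nemo/TRAIL dKO replicate 2 (0.0585), and the other 2 passed without WT replicate 1 (0.0226 and 0.0237) or without Nemo KO replicate 1 (0.0288 and 0.044).

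Of the 5 genes of the oligoadenylate synthetase family 4 rose in each genotype. These proteins make 2′-5′-linked oligoadenylates in the presence of double-stranded RNA, which activate RNase L, while the OAS-like members act by other routes. Oasl2 read 8.56, 9.02 and 8.62 in Nemo KO livers, 9.10 and 9.06 in Nemo/TRAIL dKO livers and 8.52, 8.87 and 8.71 in Nemo/TNFR1 dKO livers, against 7.42, 7.67 and 7.41 in WT. No Nemo-deficient array came near the WT range. It rose by 1.23 ± 0.14, 1.58 ± 0.15 and 1.20 ± 0.14 (adjusted p = 0.000909, 0.000861 and 0.00106). Oas2 rose by 1.11, 1.32 and 1.16, Oas1a by 0.87, 0.89 and 0.64 and Oas3 by 0.53, 0.60 and 0.38. In Nemo/TNFR1 dKO the Oas1a call was kept in 2 of the 11 fits that left out 1 array (adjusted p up to 0.157) and the Oas3 call in 4 (up to 0.0956). In Nemo/TRAIL dKO Oas1a was lost without replicate 1 (0.119) or 2 (0.114) and Oas3 without replicate 1 (0.085), and in Nemo KO Oas1a was lost without replicate 3 (0.0551). Oasl1 had differences of 0.62, 1.15 and 0.91, as large as those of its neighbours in the list, and did not pass in any (adjusted p = 0.2075, 0.0579 and 0.0798); its Nemo KO arrays read 7.79, 8.86 and 7.94, a wide spread, against 7.46, 7.91 and 7.37 in WT.

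The Mx genes, which encode dynamin-like GTPases that block viral replication, were dim. In C57BL/6 mice the Mx1 gene carries a large deletion, and its product is not functional. Mx1 read 5.37, 5.59 and 5.53 in Nemo KO livers, 6.09 and 5.77 in Nemo/TRAIL dKO livers and 5.20, 5.42 and 5.58 in Nemo/TNFR1 dKO livers, against 5.40, 5.36 and 5.04 in WT. Both Nemo/TRAIL dKO arrays were above all others, and the remaining 3 groups overlapped. It rose in Nemo/TRAIL dKO (0.66 ± 0.15, adjusted p = 0.0276), and its differences of 0.23 ± 0.14 in Nemo KO and 0.14 ± 0.14 in Nemo/TNFR1 dKO did not pass (0.321 and 0.596). The call was lost without Nemo/TRAIL dKO replicate 1 (0.215) or WT replicate 2 (0.0511) or 3 (0.0621). Mx2 differed from WT by -0.02, 0.02 and -0.24 and passed in none, though without WT replicate 3 it passed as lower in Nemo/TNFR1 dKO (-0.45, adjusted p = 0.0178).

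A further 10 genes were grouped as other antiviral effectors, and 7 of them rose in Nemo KO, 8 in Nemo/TRAIL dKO livers and 6 in Nemo/TNFR1 dKO. Trim30a, a TRIM family protein that dampens NF-kB signalling from Toll-like receptors in mouse cells, had the smallest standard error of the list. It read 8.84, 8.90 and 8.86 in Nemo KO livers, 8.75 and 8.91 in Nemo/TRAIL dKO livers and 8.80, 8.80 and 8.75 in Nemo/TNFR1 dKO livers, against 7.82, 7.72 and 7.78 in WT. The Nemo-deficient arrays formed 1 narrow band about 1 unit above the WT band. It rose by 1.095 ± 0.06, 1.05 ± 0.07 and 1.01 ± 0.06 (adjusted p = 0.000108, 0.000355 and 9.48e-05).

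Rsad2, which encodes viperin, an enzyme that makes a chain-terminating nucleotide, was the gene with the widest range between Nemo-deficient groups. It read 7.68, 8.16 and 8.13 in Nemo KO livers, 8.42 and 8.32 in Nemo/TRAIL dKO livers and 7.53, 7.91 and 7.77 in Nemo/TNFR1 dKO livers, against 7.84, 6.95 and 7.34 in WT. The Nemo/TRAIL dKO arrays lay above all others, and WT replicate 1 fell inside the ranges of Nemo KO and Nemo/TNFR1 dKO. Its difference of 0.997 ± 0.24 in Nemo/TRAIL dKO passed (adjusted p = 0.0354) and was kept in 4 of the 11 fits that left out 1 array (highest adjusted p 0.19). Those of 0.61 in Nemo KO (0.115) and 0.36 in Nemo/TNFR1 dKO (0.36) did not pass, and the first passed without WT replicate 1 (0.0295). Cmpk2, the nucleotide kinase encoded beside Rsad2, rose in all 3 by 0.58, 0.91 and 0.56.

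Rtp4, a chaperone of membrane receptors that is induced by interferon, read 8.37, 8.20 and 8.29 in Nemo KO livers, 8.61 and 8.34 in Nemo/TRAIL dKO livers and 7.95, 8.22 and 8.06 in Nemo/TNFR1 dKO livers, against 7.89, 7.61 and 7.59 in WT. All 3 genotypes were above WT, with Nemo/TNFR1 dKO replicate 1 nearest to it. It rose by 0.59 ± 0.11 in Nemo KO (adjusted p = 0.01075) and 0.78 ± 0.13 in Nemo/TRAIL dKO (0.00616), and its difference of 0.38 ± 0.11 in Nemo/TNFR1 dKO did not pass (0.0684). The second was lost without Nemo/TRAIL dKO replicate 1 (0.0701), and the third passed without WT replicate 1 (0.0356). Samd9l (1.07, 1.19 and 0.90), Zbp1, a sensor of Z-form nucleic acid that can start necroptosis (1.01, 1.22 and 0.79), Sp100 (0.75, 0.90 and 0.75) and Bst2, which encodes tetherin (0.50, 0.61 and 0.56), rose in all 3 genotypes. The Zbp1 call was kept in 3 of the 11 fits that left out 1 array in Nemo/TNFR1 dKO (adjusted p up to 0.149) and in 9 in Nemo KO (up to 0.0567), and in Nemo/TRAIL dKO it was lost without replicate 1 (0.11). Eif2ak2, which encodes the kinase PKR, and Adar, which edits adenosine in double-stranded RNA, had differences from 0.04 to 0.41 and did not pass.

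Of the PARP group, 2 of 4 genes rose in Nemo KO, 2 in Nemo/TRAIL dKO livers and 1 in Nemo/TNFR1 dKO. Parp14, a mono-ADP-ribosyltransferase, read 8.57, 8.52 and 8.42 in Nemo KO livers, 8.61 and 8.46 in Nemo/TRAIL dKO livers and 8.26, 8.36 and 8.34 in Nemo/TNFR1 dKO livers, against 8.13, 8.14 and 7.84 in WT. Nemo/TNFR1 dKO lay between WT and the other 2 groups, with no overlap on either side. It rose by 0.465 ± 0.09 and 0.50 ± 0.10 in Nemo KO and Nemo/TRAIL dKO (adjusted p = 0.0123 and 0.01755), the second not without Nemo/TRAIL dKO replicate 1 (0.149), and its difference of 0.28 ± 0.09 in Nemo/TNFR1 dKO did not pass (0.0906). Parp12 rose in all 3 by 0.40, 0.45 and 0.45, the second not without Nemo/TRAIL dKO replicate 2 (adjusted p = 0.0502). Parp9 and Dtx3l, whose products form 1 complex, differed from WT by -0.06 to 0.18 and passed in none.

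Among the interferon-inducible GTPases, which act at the membranes of vacuoles that hold pathogens, Gbp3 rose most. It read 7.06, 7.12 and 7.10 in Nemo KO livers, 7.25 and 7.46 in Nemo/TRAIL dKO livers and 6.87, 7.29 and 7.22 in Nemo/TNFR1 dKO livers, against 5.996, 6.49 and 5.91 in WT. WT replicate 2 was the highest WT array and still below all others. The differences were 0.96 ± 0.16, 1.22 ± 0.18 and 0.99 ± 0.16 (adjusted p = 0.00529, 0.00401 and 0.00441). Gbp7 rose by 0.54 in both double knockouts, in Nemo/TRAIL dKO not without replicate 1 (adjusted p = 0.112) or 2 (0.0792), and its Nemo KO difference of 0.25 did not pass. Irgm1 differed by 0.26, 0.41 and 0.13 and passed in none.

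The feedback gene Usp18 had the largest difference of the list in every comparison with WT. It read 9.20, 9.59 and 9.52 in Nemo KO livers, 9.49 and 9.72 in Nemo/TRAIL dKO livers and 9.23, 9.32 and 9.26 in Nemo/TNFR1 dKO livers, against 7.89, 7.56 and 7.46 in WT. Every Nemo-deficient array exceeded the highest WT array by more than 1 unit. It rose by 1.80 ± 0.13, 1.96 ± 0.15 and 1.63 ± 0.13 (adjusted p = 0.000263, 0.000383 and 0.000272). Trex1, a DNA exonuclease that limits sensing of the cell's own DNA, differed by -0.05, 0.06 and -0.02 and passed in none.

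The last 5 genes have less settled roles. Ifi27l2a, a small interferon-induced membrane protein, read 6.51, 7.04 and 6.88 in Nemo KO livers, 6.79 and 6.80 in Nemo/TRAIL dKO livers and 6.60, 7.09 and 6.54 in Nemo/TNFR1 dKO livers, against 5.39, 4.96 and 5.79 in WT. The WT arrays were the most scattered of the 4 groups and still lay below all others. It rose by 1.43 ± 0.23, 1.42 ± 0.25 and 1.36 ± 0.23 (adjusted p = 0.00439, 0.00953 and 0.00536), the second not without either array of Nemo/TRAIL dKO (0.0726 and 0.057). Lgals3bp, a secreted galectin-binding glycoprotein, rose by 0.81, 0.77 and 0.57. Xaf1, a proapoptotic protein, rose by 0.77 in Nemo KO livers and by 0.82 in Nemo/TRAIL dKO, and Herc6, the ligase that attaches ISG15 in mice, by 0.45 in Nemo/TRAIL dKO. The Xaf1 call was kept in 7 of the 11 fits that left out 1 array in Nemo KO (adjusted p up to 0.096) and in 4 in Nemo/TRAIL dKO (up to 0.196), and without WT replicate 1 it passed in Nemo/TNFR1 dKO (0.0192). The Herc6 call was lost without Nemo/TRAIL dKO replicate 1 (0.163) or WT replicate 2 (0.0576).

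**Figure D4:**
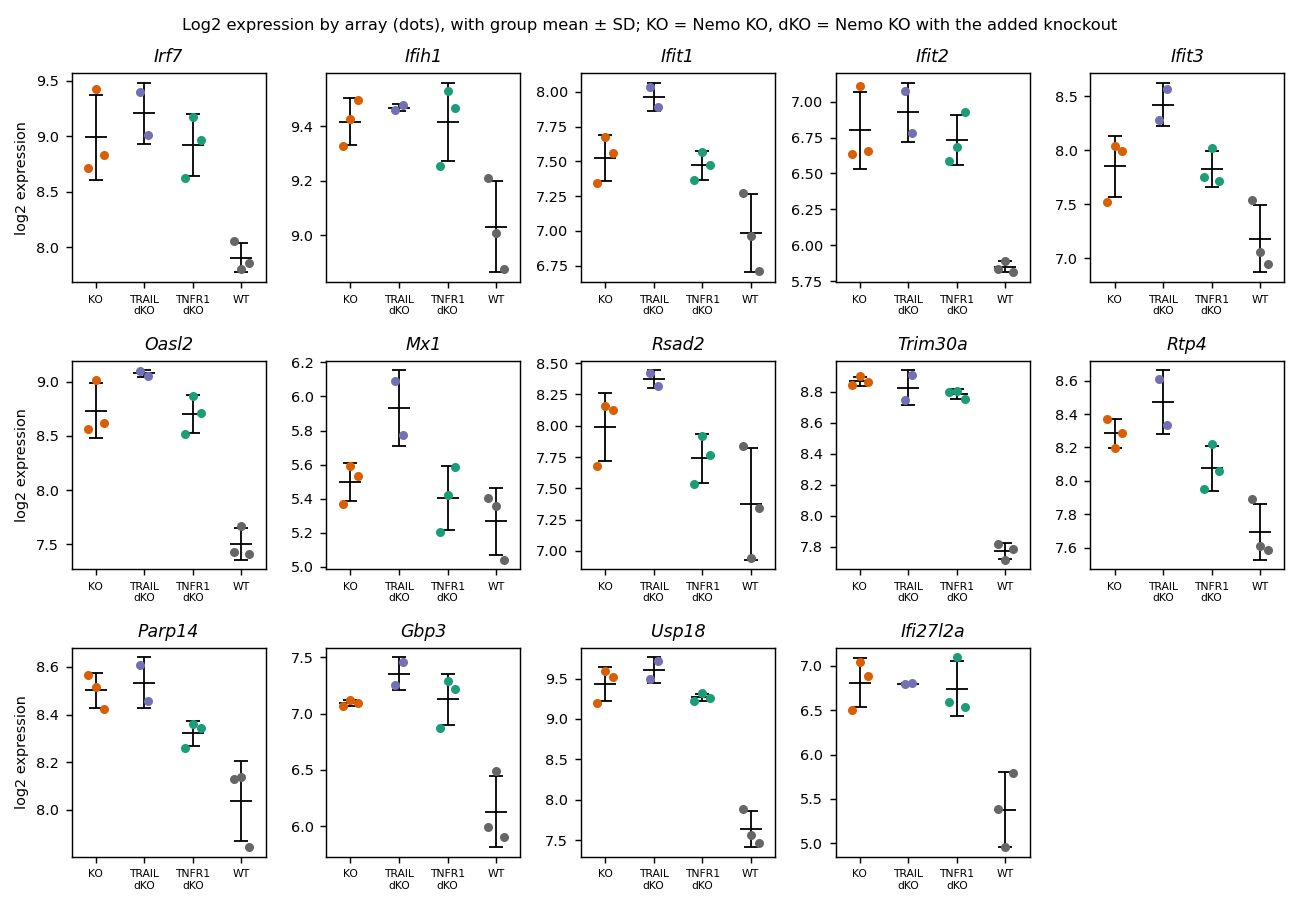
Log2 expression of 14 genes by array (dots) with the group mean and SD (bars), each panel on its own scale that does not start at 0. Trim30a, Usp18, Oasl2 and Ifit2 show WT far below the 3 Nemo-deficient groups, while Mx1, Rsad2, Ifit1 and Ifit3 show Nemo/TRAIL dKO above the others.

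The comparison of the added knockouts asked whether loss of TRAIL or TNFR1 altered the antiviral genes in livers that already lacked Nemo. No gene of the list passed in limma. In Nemo/TRAIL dKO against Nemo KO 0 of 41 were called (0.00562% of all probe sets were), and 6 had an unadjusted p below 0.05 (4.04% of all probe sets). In Nemo/TNFR1 dKO against Nemo KO 0 were called (0.0337%) and 2 had an unadjusted p below 0.05 (6.86%). In Nemo/TNFR1 dKO against Nemo/TRAIL dKO 0 were called (0.0478%) and 11 had an unadjusted p below 0.05 (5.03%). The lowest adjusted p in the list was 1, 0.602 and 0.73 in these comparisons.

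Most genes of the list nonetheless differed in 1 direction. Nemo/TRAIL dKO exceeded Nemo KO in 38 of 41 genes, with a median difference of 0.13 (-0.000562 over all genes). Its 2 arrays lay above all Nemo KO arrays for 16 genes (8.97% of all probe sets) and below them for 0 (9.62%). Nemo/TNFR1 dKO was lower than Nemo KO in 31 genes, with a median of -0.07 (0.02 over all genes), above it without overlap for 2 genes (6.6%) and below it for 7 (5.84%). Nemo/TNFR1 dKO was lower than Nemo/TRAIL dKO in 39 genes, with a median of -0.22 (0.02 over all genes), above it without overlap for 0 (9.59%) and below it for 20 (8.21%). Over all genes, Nemo/TRAIL dKO exceeded Nemo KO in 49.7%, and Nemo/TNFR1 dKO exceeded Nemo KO in 57% and Nemo/TRAIL dKO in 57.1%. These comparisons share arrays with each other, and genes of 1 pathway on the same arrays are not independent of each other.

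The genes with an unadjusted p below 0.05 between the double knockouts were Cmpk2, Mx1, Rtp4, Ifit1, Eif2ak2, Herc6, Irf9, Ifit3, Rsad2, Oasl2 and Usp18, all lower in Nemo/TNFR1 dKO. Rsad2 had the largest difference of them (-0.63, 95% interval -1.17 to -0.09, adjusted p = 0.932), followed by Ifit3 (-0.59, -1.06 to -0.13, 0.889), Mx1 (-0.53, -0.87 to -0.19, 0.793) and Ifit1 (-0.49, -0.85 to -0.14, 0.838). Against Nemo KO the same contrast of Nemo/TRAIL dKO gave 0.38 for Rsad2 (interval -0.15 to 0.92), 0.57 for Ifit3 (0.11 to 1.04), 0.43 for Mx1 (0.09 to 0.77) and 0.44 for Ifit1 (0.09 to 0.79), each with an adjusted p of 1. Nemo/TNFR1 dKO against Nemo KO gave -0.25, -0.02, -0.09 and -0.05 for these genes. Gbp7, which had an unadjusted p below 0.05 against Nemo KO in both double knockouts, was 0.29 higher in Nemo/TRAIL dKO than in Nemo KO, 0.29 higher in Nemo/TNFR1 dKO than in Nemo KO, and differed by -0.0027 between the double knockouts, and the lowest of the adjusted p was 0.602. Lgals3bp was lower in Nemo/TNFR1 dKO than in Nemo KO (-0.24, unadjusted p = 0.031, adjusted p = 0.6925).

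By group mean, Nemo/TRAIL dKO was the highest of the 3 Nemo-deficient genotypes for 36 of 41 genes (27.9% of all genes) and Nemo/TNFR1 dKO the lowest for 31 (28.1%). WT had the lowest of the 4 means for 34 genes, a count for which the share of all genes was not computed. Summed up per array, the mean of the 41 genes relative to the WT mean was 0.46, 0.64 and 0.56 in Nemo KO livers, 0.78 and 0.67 in Nemo/TRAIL dKO livers and 0.37, 0.58 and 0.52 in Nemo/TNFR1 dKO livers, against 0.14, -0.04 and -0.10 in WT. The lowest Nemo-deficient array stood above the highest WT array, the 2 Nemo/TRAIL dKO arrays stood above the other 6, and Nemo KO and Nemo/TNFR1 dKO overlapped. Single arrays stood at the top or bottom of their group for most of the list. WT replicate 1 was the highest WT array for 30 of 41 genes (42.5% of all genes) and Nemo/TRAIL dKO replicate 1 the higher of its group for 30 (50.5%). Nemo/TNFR1 dKO replicate 1 was the lowest of its group for 32 and the highest for 2 (41.2% of all genes). Nemo KO replicate 1 was the lowest of its group for 29 and the highest for 8 (32.3%). The share of all genes was not computed for the lowest array. The median within-group SD of the list was 0.09 in Nemo KO, 0.09 in Nemo/TRAIL dKO, 0.14 in Nemo/TNFR1 dKO and 0.17 in WT, against 0.08, 0.07, 0.10 and 0.11 over all genes.

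The pathway around these genes was read from lists of its other parts. No interferon gene passed in any comparison with WT, out of 15 measured of 19 listed, with medians of -0.08 in Nemo KO, -0.11 in Nemo/TRAIL dKO livers and -0.07 in Nemo/TNFR1 dKO. Several of their probe sets were dim, with Nemo KO means of 3.16 for Ifna11 and 3.98 for Ifna4, while Ifnl2 had 7.89. A change may go unseen in the dim ones. Ifnb1, the gene of interferon beta, read 4.19, 4.19 and 4.13 in Nemo KO livers, 4.34 and 4.09 in Nemo/TRAIL dKO livers and 4.10, 4.11 and 4.25 in Nemo/TNFR1 dKO livers, against 4.09, 4.19 and 4.01 in WT, and the groups overlapped. Of 11 measured genes for receptors, kinases and their inhibitors 3 rose in each genotype, and they were the same 3. Il10rb, a chain of the interferon lambda and IL-10 receptors, rose by 0.89, 0.85 and 0.85, Ifngr1 by 0.77, 0.85 and 0.64 and Ifngr2, its partner in the interferon gamma receptor, by 0.40, 0.52 and 0.46. Ifnar2, a chain of the type I receptor, fell in Nemo/TNFR1 dKO by 0.24 (adjusted p = 0.0383), and its differences of -0.13 and -0.17 in Nemo KO and Nemo/TRAIL dKO did not pass.

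Of 13 measured genes for nucleic acid sensing upstream of interferon 4 rose in Nemo KO, 3 in Nemo/TRAIL dKO livers and 3 in Nemo/TNFR1 dKO. Tlr7, the endosomal receptor of single-stranded RNA, read 6.55, 6.84 and 7.13 in Nemo KO livers, 6.72 and 7.04 in Nemo/TRAIL dKO livers and 6.23, 6.62 and 6.56 in Nemo/TNFR1 dKO livers, against 5.12, 5.28 and 5.50 in WT, with no overlap. It rose by 1.54, 1.58 and 1.17. Tlr9, the receptor of unmethylated DNA, rose by 0.75, 0.76 and 0.71 and Irf8, a factor of macrophages and dendritic cells, by 0.96, 0.79 and 0.84. Aim2, a sensor of cytosolic DNA, rose in Nemo KO (0.80), and Mavs, the adaptor of RIG-I and MDA5, fell in Nemo/TRAIL dKO (-0.40, adjusted p = 0.0433).

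Of 36 measured further interferon-induced genes 12 rose in Nemo KO, 16 in Nemo/TRAIL dKO livers and 11 in Nemo/TNFR1 dKO, and 0 fell. Slfn8, a Schlafen gene, read 6.05, 6.22 and 6.28 in Nemo KO livers, 6.79 and 6.499 in Nemo/TRAIL dKO livers and 6.21, 6.61 and 6.45 in Nemo/TNFR1 dKO livers, against 5.02, 5.13 and 5.18 in WT. It rose by 1.07, 1.53 and 1.31, and all Nemo-deficient arrays were above WT. Ifi205, of the family of DNA-binding AIM2-like receptors, rose in Nemo KO (0.92) and Nemo/TRAIL dKO (1.07), and its difference of 0.33 in Nemo/TNFR1 dKO did not pass. Phf11d rose by 0.84, 0.87 and 0.59, Slfn5 by 0.74, 0.89 and 0.71 and Ube2l6, the enzyme that passes ISG15 on to its ligase, by 0.30, 0.48 and 0.63. Cxcl10, a chemokine of both interferon types, rose in Nemo/TRAIL dKO (0.99, adjusted p = 0.0134). Cxcl11 had a WT mean of 7.55, above its means of 7.01 for Nemo KO, 7.12 for Nemo/TRAIL dKO and 7.07 for Nemo/TNFR1 dKO. Cxcl9 had a WT mean of 8.60, against 8.24 for Nemo/TNFR1 dKO, 8.38 for Nemo KO and 8.80 for Nemo/TRAIL dKO. Neither of these chemokines was called lower than WT.

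Some markers of other cell types also rose against WT. Of 12 macrophage markers 11 rose in Nemo KO, 10 in Nemo/TRAIL dKO livers and 10 in Nemo/TNFR1 dKO, and their summed log2 level ran from 101 to 104 in Nemo KO, 100 to 103 in Nemo/TRAIL dKO livers and 97.9 to 102 in Nemo/TNFR1 dKO, against 89.0 to 89.3 in WT. Of 4 markers of plasmacytoid dendritic cells, a main source of type I interferon, Siglech and Ccr9 rose in all 3 genotypes (Siglech by 0.71, 0.89 and 0.81), Cox6a2 and Pacsin1 rose in none, and the sums ran from 25.4 to 25.7, 25.5 to 26.03 and 25.3 to 25.8, against 23.6 to 24.1 in WT. Of 5 Kupffer cell markers 3, 2 and 3 rose and Timd4 fell in Nemo/TRAIL dKO (-0.53, adjusted p = 0.0437), with sums of 44.1 to 46.0, 44.1 to 44.4 and 44.6 to 45.9, against 41.9 to 43.3 in WT. Their part in the rise of the antiviral genes was not tested. No hepatocyte marker of 7 passed, and their sums were 91.7 to 92.4, 92.1 in both arrays and 91.7 to 92.3, against 91.8 to 92.7 in WT. The hepatocyte markers thus stood at a mean log2 level of 13.1 to 13.2 on every array, and the log2 values have no true zero from which to call a marker absent.

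**Figure D5:**
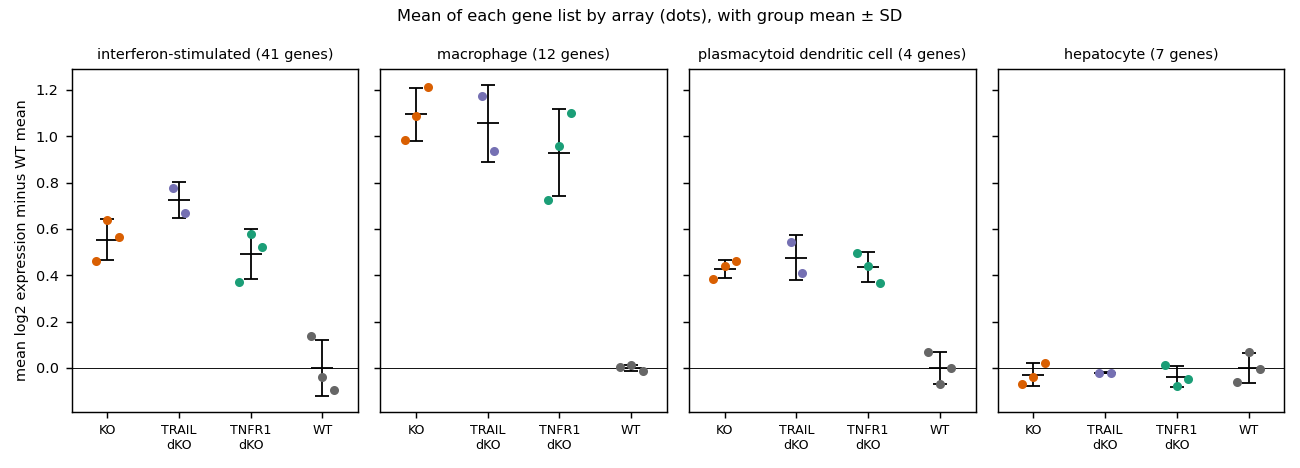
Mean of 4 gene lists on each array (dots), relative to the WT mean, with the group mean and SD (bars). The antiviral genes average 0.55, 0.72 and 0.49 above WT in Nemo KO, Nemo/TRAIL dKO livers and Nemo/TNFR1 dKO and macrophage markers 1.09, 1.06 and 0.93, while the group means of hepatocyte markers lie between -0.04 and -0.02 in these genotypes.

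Markers of stellate cells rose as well, all 5 in Nemo KO and Nemo/TNFR1 dKO and 4 in Nemo/TRAIL dKO. In the remaining lists a smaller part of the markers rose, and in such short lists a single call says little beside the share of all probe sets that rose. Of 11 T and NK cell markers 1, 1 and 4 rose, of 5 neutrophil markers 1, 0 and 1, of 5 sinusoidal endothelial markers 0, 2 and 1 (with Kdr lower in Nemo/TRAIL dKO, -0.41, adjusted p = 0.0304), of 4 cholangiocyte markers 0, 1 and 0 and of 3 B cell markers 0 in each. The antiviral list averaged highest in Nemo/TRAIL dKO. Means of the macrophage list were 1.09 ± 0.11 in Nemo KO, 1.06 ± 0.17 in Nemo/TRAIL dKO livers and 0.93 ± 0.19 in Nemo/TNFR1 dKO (SD, n = 3, 2 and 3). In the same order the plasmacytoid dendritic cell list had 0.43 ± 0.04, 0.48 ± 0.10 and 0.43 ± 0.06. The Kupffer cell list had 0.505 ± 0.19, 0.34 ± 0.05 and 0.52 ± 0.14, and the cholangiocyte list 0.39 ± 0.06, 0.45 ± 0.27 and 0.265 ± 0.26. Differences between groups in these list means were not tested.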

How the data were processed

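Liver RNA of 11 samples was hybridised to Affymetrix mouse whole-transcript arrays. The values are log2 expression per probe set, made by the authors with RMA, per the submitters' processing notes, a method that corrects background, equalises distributions between arrays and summarises probes; the version and the genome build are not given in the sources used here. They were used as deposited, without further scaling and without a detection filter. Of 35556 probe sets 21789 carried 1 gene symbol, 1621 several and 12146 none.

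With R 4.3.3 and limma 3.58.1, all probe sets on the 11 arrays were modelled by 1 mean per genotype (lmFit, eBayes, 7 residual and 2.51 prior degrees of freedom). P-values are two-sided, adjusted by Benjamini-Hochberg within each of 6 comparisons, and called below 0.05. The script was tested on simulated data. Precision is limited by the number of arrays.

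The genes and lists were chosen with earlier results of these data known. Values by array are given for the gene with the largest Nemo KO difference of each role and for 5 genes called in only some comparisons with WT that differ most between Nemo-deficient groups. Of other pathway genes, called ones with the largest differences are named; Ifnb1 and the genes called in 1 or 2 genotypes were added after their values were seen. Promoters come from RefSeq (GRCm38.p6), matched by symbol. Cross-hybridisation between close paralogs was not tested. Alternatives were the groups in the fit, a replicate block, the variance moderation, the scaling, filters on dim probe sets, the probe sets used and leaving out each array.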

Additional observations from a re-analysis of the deposited data

Results flagged for a closer look

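Irf9 and Mx2 were picked because their arrays lay on opposite sides of Nemo KO in the 2 double knockouts. For either gene both Nemo/TRAIL dKO arrays lay above all Nemo KO arrays, and all Nemo/TNFR1 dKO arrays lay below them. For Mx2 the lower Nemo/TRAIL dKO array (5.96) barely exceeded the highest Nemo KO array (5.95). Such an order, in either direction, occurred in 2 of the 41 genes (4.88%) and in 129 of all 35556 probe sets (0.363%). This choice fixed the direction of the differences given below, so their unadjusted p-values add no support. Irf9 read 8.49, 8.62 and 8.63 in Nemo/TNFR1 dKO, against 8.92 and 8.77 in Nemo/TRAIL dKO, with Nemo KO between them at 8.70, 8.73 and 8.72. The difference between the double knockouts was -0.259 (limma, 95% interval -0.45 to -0.07, unadjusted p = 0.0128, adjusted p = 0.846). Mx2 read 5.75, 5.65 and 5.75 in Nemo/TNFR1 dKO, against 5.96 and 5.99 in Nemo/TRAIL dKO, with Nemo KO between them at 5.91, 5.94 and 5.95. Its difference was -0.26 (interval -0.65 to 0.13, unadjusted p = 0.171, adjusted p = 1). The WT arrays of Mx2 ran from 5.53 to 6.31, across the values of all other groups. Neither difference passed the test.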

How the results depend on the processing

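No count or median, and no called difference from WT among the antiviral genes with values given by array, reversed its direction under the alternatives run; among differences from WT that passed no test, those of Stat2, Irf1, Mx2, Parp9, Trex1, Eif2ak2 and Ifi35 changed sign in at least 1 genotype when 1 array was left out (for example Stat2 in Nemo KO -0.107 to 0.0146, Irf1 in Nemo/TRAIL dKO -0.232 to 0.0383, Mx2 in Nemo KO -0.235 to 0.153). In Nemo/TRAIL dKO against WT 15 genes were called with only these 2 groups in the fit, in place of 28, and the median was 0.773 among the 38 genes with a mean signal above the median. Leaving out 1 array gave 18 to 25 called genes in Nemo KO, 12 to 28 in Nemo/TRAIL dKO livers and 14 to 21 in Nemo/TNFR1 dKO, with medians of 0.458 to 0.546, 0.572 to 0.823 and 0.372 to 0.553; fits with a lone Nemo/TRAIL dKO array assume that it varies like the other groups. The calls kept in all 11 such fits numbered 17 of 22, 10 of 28 and 14 of 19. Same-numbered arrays of different groups were not correlated (r from -0.117 to 0.0435). The correlations used deviations from group means, which mirror each other in a group of 2 arrays. They cannot decide whether the numbers pair the samples. With a replicate block 19, 22 and 15 genes were called against WT, with medians of 0.534, 0.663 and 0.454. In the comparisons among Nemo-deficient groups that fit called 0. Quantile normalization gave 22, 28 and 18 called genes, and centring each array on its median gave 20, 27 and 16. The cause was not tested. Of the single-gene results under the other alternatives 483 kept their side of the threshold, 12 gained and 20 lost the call, among them Ifih1 in each comparison with WT under the replicate block, the median centring and the fit of only the groups compared.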
